A study of Mus musculus with 4 samples.

Results

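A set of 9 genes of adipogenesis and lipid uptake was followed in SAG-treated mouse embryonic fibroblasts: the transcription factor genes Pparg, Cebpa, Cebpb and Cebpd, the lipid handling genes Cd36, Lpl, Angptl4 and Fabp4, and the alcohol dehydrogenase gene Adh1. These 9 genes, of 55573 gene identifiers in the files, were chosen by name with earlier results of these data known. All 9 symbols were found in GENCODE M21. In 8 of them the level reached 1 FPKM (a fragment count scaled to exon length and library size) in at least 1 library, which is the filter used below; Fabp4 stayed under it. The RNA came from primary MEFs, fibroblast cultures taken from mouse embryos that are not an established line. All 4 cultures had 100 nM SAG for 24 h, an agonist of Smoothened that switches Hedgehog signalling on. One library was made from each of 4 groups: MEFs of the genotype Dyrk2-KO (KO), wild-type MEFs with an siRNA against Dyrk2 (siDyrk2), wild-type MEFs given the siRNA siNegative as a control (siNeg), and wild-type MEFs for which the labels name no siRNA (WT). The labels give neither the number of embryos behind a culture nor how long before collection the siRNAs were added. With 1 library per group no difference below has a replicate check and no test was made; intervals are 95% counting intervals and cover counting error only.

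Adipocytes form in a cascade of transcription factors. C/EBPβ and C/EBPδ act early, and they raise PPARγ and C/EBPα, which then sustain each other and switch on the genes of the fat cell. Among the genes that PPARγ activates are those for lipoprotein lipase, the fatty acid receptor CD36, the fatty acid carrier FABP4 and ANGPTL4, a secreted inhibitor of lipoprotein lipase. Hedgehog signalling is known to hold this programme back in mesenchymal cells, and DYRK2 is the kinase studied here as a regulator of that pathway. MEFs contain cells that can become adipocytes when given an inducing cocktail, which the labels do not mention here.

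Promoter sequences are shown for 3 of the genes, because Cd36 and Adh1 were at least 2-fold higher in the KO library than in WT and the downstream Pparg start is the one that holds C/EBP motifs. RefSeq's promoter table (GRCm38.p6) listed 5 of the 9 genes, Pparg with 3 starts and Cebpa, Cebpb, Cd36 and Adh1 with 1 each; Cebpd, Lpl, Angptl4 and Fabp4 were not matched in it. The 250 bases before each start are written 5′ to 3′ in lower case, with capitals for matches to a C/EBP core (TTGCNNAA, or TTNNGCAA on the other strand), a nuclear receptor half-site (AGGTCA, or TGACCT) or a GLI motif (GACCACCCA, or TGGGTGGTC).
Pparg, downstream start, chr6:115421816-115422065, plus strand: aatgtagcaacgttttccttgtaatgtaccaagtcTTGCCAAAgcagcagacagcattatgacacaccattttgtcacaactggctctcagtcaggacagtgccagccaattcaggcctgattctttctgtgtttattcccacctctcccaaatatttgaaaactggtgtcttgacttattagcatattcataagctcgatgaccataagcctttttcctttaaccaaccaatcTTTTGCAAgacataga
Cd36, chr5:17835897-17836146, minus strand: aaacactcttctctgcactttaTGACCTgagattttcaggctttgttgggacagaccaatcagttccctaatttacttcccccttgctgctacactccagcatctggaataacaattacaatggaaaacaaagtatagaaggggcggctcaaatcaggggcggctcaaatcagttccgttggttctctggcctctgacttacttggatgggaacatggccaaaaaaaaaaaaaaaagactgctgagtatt
Adh1, chr3:138277335-138277584, plus strand: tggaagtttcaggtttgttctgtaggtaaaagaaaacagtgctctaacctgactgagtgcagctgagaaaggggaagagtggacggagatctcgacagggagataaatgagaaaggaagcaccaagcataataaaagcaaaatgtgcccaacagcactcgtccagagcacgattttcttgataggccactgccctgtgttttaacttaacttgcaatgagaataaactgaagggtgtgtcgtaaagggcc
The downstream Pparg window held 2 C/EBP cores, at positions -215 to -208 and -16 to -9 relative to the start. Of the 7 windows listed for the 5 genes, only this one held a C/EBP core. Over 32817 promoter windows of this length, 9.57% held one. The transcript that begins there, Pparg-201, encodes the longer PPARγ protein of 505 residues, against 475 for Pparg-202 and Pparg-204 from the upstream starts. Gene-level FPKM does not separate these transcripts. The Cd36 window held 1 nuclear receptor half-site, at positions -228 to -223, and each upstream Pparg window held 1 as well. That motif was found in 14.0% of windows. The Adh1 window held none of the 3 motifs, and neither did the Cebpa and Cebpb windows. No window of these genes held a GLI motif (0.225% of all windows) or the PPAR direct repeat, a pair of half-sites separated by a single base (0.0335%), which says nothing about sites elsewhere. The direct repeat contains the half-site, so these motifs overlap.

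The libraries held an estimated 21.9 M fragments in KO, 21.5 M in siDyrk2, 20 M in siNeg and 23.9 M in WT, where M stands for 1000000. Dyrk2 was at 0.57 FPKM in KO, 0.81 in siDyrk2, 7.06 in siNeg and 6.59 in WT, so the labels and the gene went together. Gli1, the Hedgehog effector and feedback gene, was at 0.24, 2.25, 30.17 and 28.81 FPKM in the same order, and Ptch1, the Hedgehog receptor and target gene, at 1.23, 1.95, 16.03 and 16.32 FPKM. All 4 measured Hedgehog targets were at least 2-fold lower in KO than in WT and in siDyrk2 than in siNeg, with median log2 ratios of -2.52 and -2.28. The KO library also differed from the other 3 in other ways. The Y-linked gene Ddx3y was at 8.28 FPKM in KO and at 0.02 FPKM or less in siDyrk2, siNeg and WT, and the proliferation marker Mki67 was at 4.58 FPKM in KO, 17.55 in siDyrk2, 21.42 in siNeg and 13.43 in WT. The part of these differences in the results below was not tested.

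The KO library had the highest level of 8 of the 9 genes, and Cebpd was the exception. The siNeg library had the lowest level of 6, WT of 2 and KO of 1. Ordered by FPKM, which is per base of exon, Lpl was the most abundant of the 9 in every library, followed by Cebpb and Adh1, and Pparg and Fabp4 were the least abundant. In between, the order differed: Cd36 and Angptl4 stood above Cebpa in KO and in siDyrk2, whereas Angptl4 stood below Cebpd in siNeg and in WT. Several neighbours in this order had overlapping counting intervals, namely Cebpa and Cd36 in WT (7.86 to 9.32 and 7.69 to 8.92 FPKM), Cebpd and Angptl4 in WT, Cebpa and Cebpd in siNeg, Cebpa with both Angptl4 and Cebpd in siDyrk2, and, by a narrow margin, Cd36 and Angptl4 in KO (18.4 to 20.4 and 16.6 to 18.5 FPKM).

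**Figure D1:**
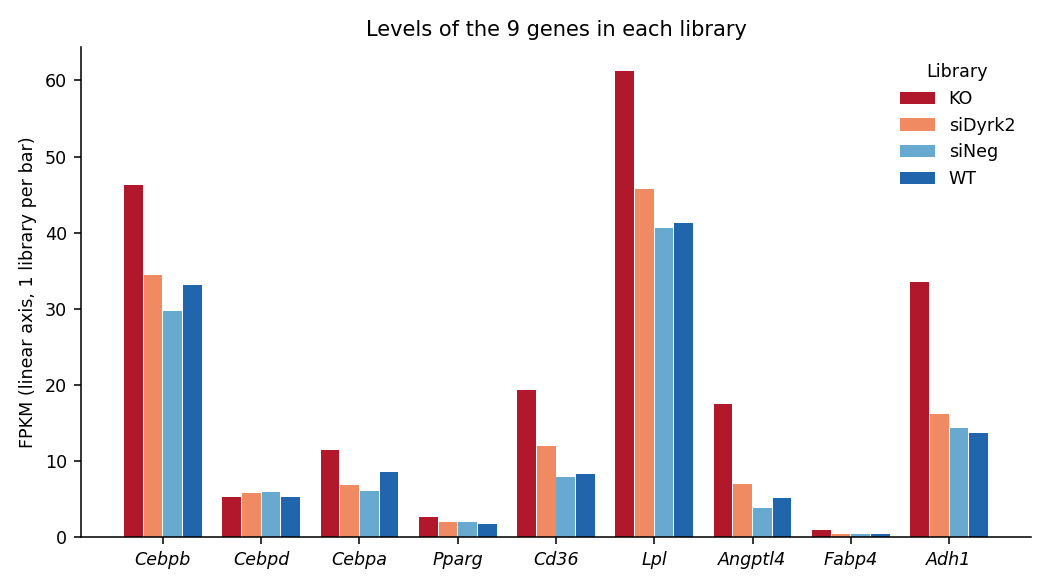
Level of each of the 9 genes in FPKM (linear vertical axis) in the KO, siDyrk2, siNeg and WT libraries, 1 bar per library. The KO bar is the tallest for all genes but Cebpd, and Lpl and Cebpb are the highest genes in each library.

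Among the transcription factors, Cebpb, Cebpa and Pparg were moderately higher in KO than in WT, and Cebpd was level. Gene positions are those of GRCm38 in GENCODE M21, and each level is counted over all exons of the gene. Cebpb, the early C/EBP gene (ENSMUSG00000056501, chr2:167688915-167690418, plus strand), was at 46.23 FPKM in KO, 34.47 in siDyrk2, 29.72 in siNeg and 33.18 in WT. It was thus 1.39-fold higher in KO than in WT (1.29 to 1.5) and 1.16-fold higher in siDyrk2 than in siNeg (1.06 to 1.27). These were the 549th and 2975th highest ratios of 12817 genes on the log2((FPKM + 1)/(FPKM + 1)) scale. The controls also differed, with siNeg 0.896-fold of WT (0.820 to 0.978), and siDyrk2 was 1.04-fold of WT.

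Cebpd, the other early factor (ENSMUSG00000071637, chr16:15887286-15891031, plus strand), was at 5.24 FPKM in KO, 5.77 in siDyrk2, 6.01 in siNeg and 5.29 in WT. In each of the 3 comparisons the interval of the ratio held 1, at 0.867 to 1.13 for KO over WT, 0.841 to 1.09 for siDyrk2 over siNeg and 0.997 to 1.3 for siNeg over WT.

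Cebpa, the late factor that maintains the adipocyte state (ENSMUSG00000034957, chr7:35119293-35121928, plus strand), was at 11.45 FPKM in KO, 6.84 in siDyrk2, 6.04 in siNeg and 8.56 in WT. KO was 1.34-fold of WT (1.19 to 1.5), yet siNeg was 0.706-fold of WT (0.612 to 0.812), so the intact controls differed by as much as KO and WT did. For siDyrk2 the direction depended on the control, at 1.13-fold of siNeg (0.974 to 1.32) and 0.799-fold of WT (0.699 to 0.912).

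Pparg, the nuclear receptor at the centre of the programme (ENSMUSG00000000440, chr6:115360951-115490399, plus strand), was low throughout, at 2.69 FPKM in KO, 1.96 in siDyrk2, 2.03 in siNeg and 1.73 in WT. These values rested on 174, 124, 120 and 122 estimated fragments. KO was 1.55-fold of WT (1.23 to 1.98), and siDyrk2 was 0.966-fold of siNeg (0.742 to 1.25). The siDyrk2 and both control values were not distinguishable at this depth.

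Among the genes of lipid uptake, Angptl4 and Cd36 had larger ratios than every one of the 4 factors in both Dyrk2 comparisons. On the log2((FPKM + 1)/(FPKM + 1)) scale Lpl and Fabp4 did so for KO over WT only. As ratios of deposited FPKM, Fabp4 exceeded the 4 factors in both comparisons and Lpl in neither. The Fabp4 ratio for siDyrk2 over siNeg was 1.24, with an interval that held 1 (0.772 to 2.01). Angptl4 had the largest ratio of the 9 genes in both Dyrk2 comparisons. Angptl4 (ENSMUSG00000002289, chr17:33773750-33781830, minus strand) was at 17.49 FPKM in KO, 7.01 in siDyrk2, 3.90 in siNeg and 5.13 in WT. KO was 3.41-fold of WT (3.06 to 3.8), the 11th highest of 12817 genes on the log2((FPKM + 1)/(FPKM + 1)) scale, and siDyrk2 was 1.8-fold of siNeg (1.55 to 2.09), the 273rd highest.

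Both libraries with lowered Dyrk2 therefore held more Angptl4 than both controls. The margin for siDyrk2 was smaller against WT, at 1.37-fold (1.2 to 1.55), because siNeg was itself 0.760-fold of WT (0.651 to 0.886). For KO the margin over siNeg was 4.48-fold (3.94 to 5.12).

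Cd36, which encodes a membrane receptor for long-chain fatty acids and oxidised lipoproteins (ENSMUSG00000002944, chr5:17781690-17888801, minus strand), was at 19.38 FPKM in KO, 12.05 in siDyrk2, 7.97 in siNeg and 8.29 in WT. The controls were nearly equal, with siNeg 0.961-fold of WT (0.860 to 1.08). KO was 2.34-fold of WT (2.14 to 2.56), the 48th highest gene, and siDyrk2 was 1.51-fold of siNeg (1.36 to 1.68) and 1.45-fold of WT (1.32 to 1.6). With pseudocounts of 5 FPKM the log2 ratio of Cd36 in KO was 0.88, under 2-fold.

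Lpl, the gene of the lipase that ANGPTL4 inhibits (ENSMUSG00000015568, chr8:68880491-68907448, plus strand), was at 61.27 FPKM in KO, 45.76 in siDyrk2, 40.65 in siNeg and 41.31 in WT. KO was 1.48-fold of WT (1.45 to 1.52) and siDyrk2 was 1.13-fold of siNeg (1.09 to 1.16). These were the 373rd and 3579th highest ratios of 12817 genes. Its intervals were narrow, since 8510 to 14042 estimated fragments fell on it per library, and the interval for siNeg over WT held 1 (0.956 to 1.01).

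Fabp4, a cytosolic fatty acid carrier and a late marker of adipocytes (ENSMUSG00000062515, chr3:10204088-10208576, minus strand), was at 0.94 FPKM in KO, 0.46 in siDyrk2, 0.37 in siNeg and 0.40 in WT. The estimated fragments were 92, 44, 33 and 43. KO was 2.35-fold of WT (1.61 to 3.44), and siDyrk2 could not be told from siNeg at this depth (0.772 to 2.01). The authors' length for Fabp4, 4489 bases, equals the union of all M21 exons and includes a transcript that spans the introns. Its FPKM is thus low relative to that of a gene counted over spliced exons only. The last place of Fabp4 in the order above and its place under the filter may depend on this length.

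Adh1 encodes a class I alcohol dehydrogenase that also oxidises retinol (ENSMUSG00000074207, chr3:138260991-138290698, plus strand). It was at 33.54 FPKM in KO, 16.18 in siDyrk2, 14.35 in siNeg and 13.66 in WT. KO was the furthest from the controls, at 2.46-fold of WT (2.25 to 2.68), the 35th highest gene. The siDyrk2 level was also above both controls, but by less, at 1.13-fold of siNeg (1.01 to 1.25) and 1.18-fold of WT (1.07 to 1.31). Its ratio for siDyrk2 over siNeg was only the 3650th highest of 12817 genes. Of the 9 genes Adh1 had the largest gap between the comparisons, a log2 ratio of 1.24 for KO over WT and 0.16 for siDyrk2 over siNeg.

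**Figure D2:**
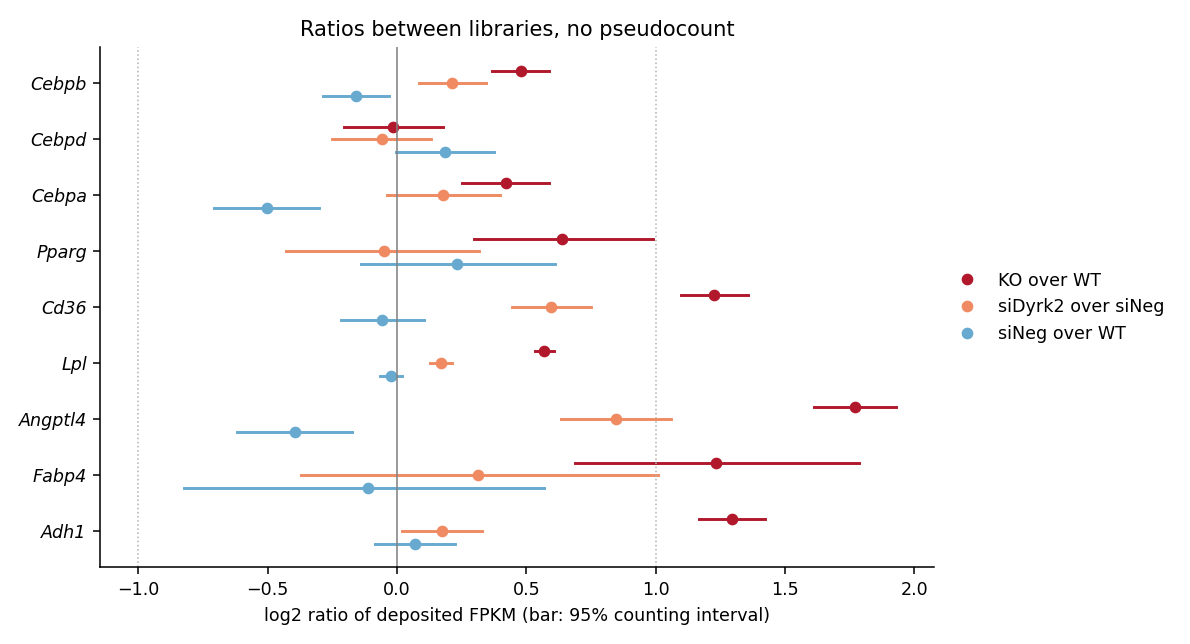
Log2 ratio of deposited FPKM, without a pseudocount, for KO over WT, siDyrk2 over siNeg and siNeg over WT (horizontal axis), with 95% counting intervals as bars, 1 row per gene. Angptl4, Fabp4, Adh1 and Cd36 lie to the right of 1 for KO over WT, and Cebpd lies near 0.

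Set against all genes, 3 of the 8 measured genes (Angptl4, Adh1 and Cd36) were at least 2-fold higher in KO than in WT on FPKM + 1, and 0 were at least 2-fold lower. Of 12817 genes that passed the filter, 0.57% were at least 2-fold higher and 1.21% at least 2-fold lower in this comparison. By direction alone 7 of the 8 were higher, where 43.7% of all genes were. Their median log2 ratio was 0.51, against -0.02 over all genes. The genes were chosen with earlier results of these data known, so these shares describe the set and test nothing. In bulk RNA, more cells that carry a transcript and more transcript per cell cannot be told apart.

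For siDyrk2 over siNeg, 0 of the 8 genes were at least 2-fold different, where 0.749% of all genes were higher and 0.796% lower by that much. By direction 6 of the 8 were higher, against 54.3% of all genes. The median log2 ratio was 0.16, against 0.02 over all genes. Angptl4 (0.71) and Cd36 (0.54) were the furthest from 0. Against both siNeg and WT, the counting interval of siDyrk2 lay above 1 for Cd36, Angptl4, Lpl and Adh1. The share of all genes with such intervals is not given here. For siDyrk2 over siNeg, Lpl (0.17) and Adh1 (0.16) lay near the median absolute log2 ratio of all genes, 0.16. In that comparison 27.9% of all genes had a higher ratio than Lpl, and 28.5% a higher ratio than Adh1.

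For siNeg over WT, the comparison of both intact controls, 0 of the 8 genes were at least 2-fold different, where 0.367% of all genes were higher and 0.562% lower by that much. By direction 3 of the 8 were higher, against 48.3% of all genes, and the median log2 ratio was -0.04, against -0.01 over all genes. Cebpa (-0.44) and Angptl4 (-0.32) were the furthest from 0. For scale, 95% of all genes had an absolute log2 ratio of at most 0.52 in this comparison, and 95% of protein-coding genes one of at most 0.45. The KO over WT ratios of Angptl4 (1.59), Adh1 (1.24), Cd36 (1.13) and Lpl (0.56) exceeded both values. That of Cebpb (0.47) lay between them, and those of Pparg (0.43) and Cebpa (0.38) lay under both. Within KO over WT itself these bounds were wider, at 0.67 for all genes and 0.60 for protein-coding genes, and Lpl lay under both. WT enters both siNeg over WT and KO over WT, and siNeg enters both siNeg over WT and siDyrk2 over siNeg. Their ratios are thus not independent. The siNeg over WT spread also comes from a single pair of wild-type libraries. It does not measure the spread that goes with the KO library's Ddx3y and Mki67 levels given above.

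**Figure D3:**
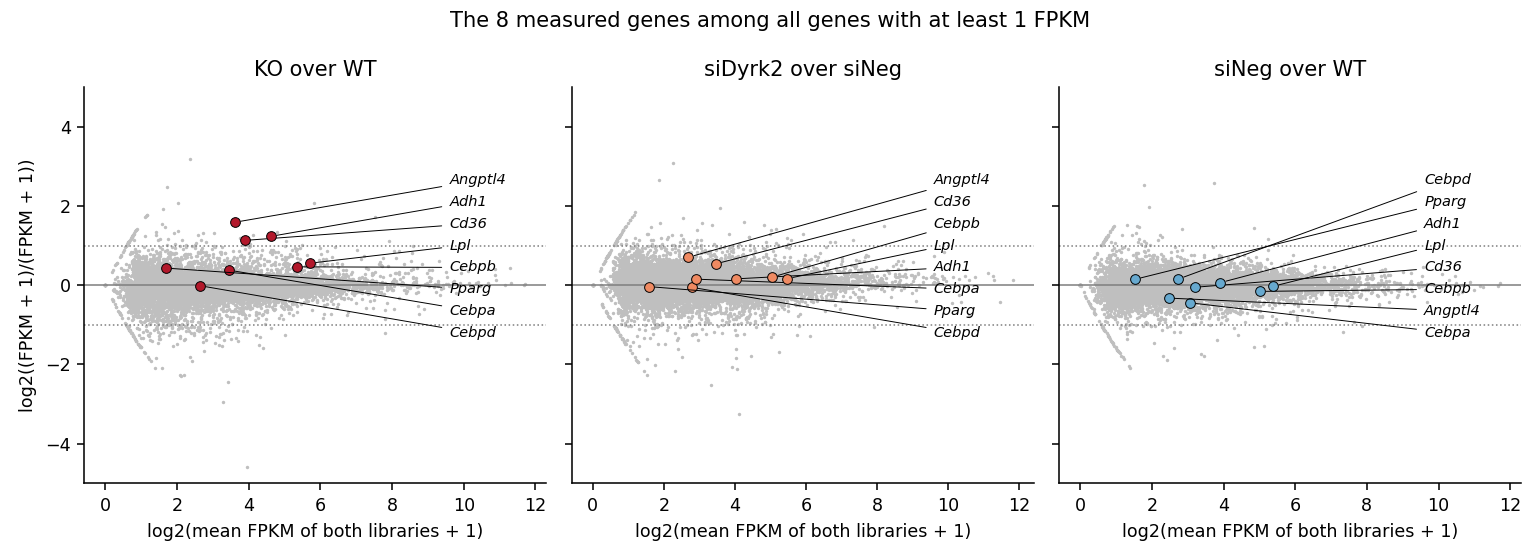
Log2((FPKM + 1)/(FPKM + 1)) of each of 12817 genes (grey points) against the log2 of their mean FPKM + 1, for KO over WT, siDyrk2 over siNeg and siNeg over WT; labelled points are the 8 measured genes and dotted lines mark 2-fold. Angptl4, Adh1 and Cd36 lie above the upper dotted line in the KO panel, and all 8 genes lie between the lines in the other panels.

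Other regulators of adipogenesis showed no common direction in KO. Of 18 measured pro-adipogenic regulators 8 were higher and 10 lower in KO than in WT, with a median log2 ratio of -0.01, and 0 were 2-fold different. Klf5, a factor that C/EBPβ and C/EBPδ induce ahead of Pparg, was lower in both comparisons, at 2.43 FPKM in KO against 4.73 in WT and at 1.26 in siDyrk2 against 3.46 in siNeg. In siDyrk2 9 were higher and 9 lower (median -0.03), and Igf1, the growth factor gene, was at 18.36 FPKM against 33.29 in siNeg. Nr1h3, the liver X receptor α gene, was at 1.04 FPKM in KO against 0.45 in WT and at 0.80 in siDyrk2 against 0.42 in siNeg.

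Of 13 measured anti-adipogenic regulators 6 were higher and 7 lower in KO, with a median of -0.01, and 4 were higher and 9 lower in siDyrk2, with a median of -0.19. Nr2f2, the nuclear receptor COUP-TFII, was at 4.55 FPKM in KO against 6.97 in WT and at 5.36 in siDyrk2 against 8.81 in siNeg. Gata2, which restrains the step from preadipocyte to adipocyte, was at 0.87 against 1.72 FPKM in KO and WT. Wwtr1, the gene of the co-activator TAZ, was at 24.32 FPKM in siDyrk2 against 41.88 in siNeg, whereas it was at 53.65 in KO against 44.80 in WT.

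The receptors and coregulators that work with PPARγ were on median close to even. Of 10 measured PPAR, RXR and coregulator genes 6 were higher and 4 lower in KO (median 0.05), and 3 were higher and 7 lower in siDyrk2 (median -0.07). Ncoa3, which encodes a nuclear receptor coactivator, was at 10.06 FPKM in KO against 7.37 in WT. Rxrb, the gene of a PPARγ dimer partner, was at 9.99 FPKM in siDyrk2 against 12.21 in siNeg. Of 6 measured C/EBP family genes, 3 of them in the set, 4 were higher and 2 lower in KO (median 0.12), and 3 were higher and 3 lower in siDyrk2 (median -0.02). The remaining ones, Cebpg, Cebpz and the stress factor Ddit3, had log2 ratios between -0.01 and 0.23 in KO.

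Among 18 measured PPAR target genes of fat oxidation and storage 14 were higher and 4 lower in KO (median 0.15), and 0 were 2-fold different. Plin2, which coats lipid droplets, was at 37.86 FPKM in KO against 24.11 in WT, and Cpt1a, which admits long-chain fatty acids to mitochondria, was at 24.42 against 16.75. Acaa2, the gene of a mitochondrial thiolase of fatty acid oxidation, was at 48.28 against 36.06 FPKM. In siDyrk2 11 of the 18 were higher and 6 lower (median 0.07), and Cpt2, which acts after Cpt1a in mitochondrial import, was at 18.10 FPKM against 12.85 in siNeg.

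Partners of Lpl and Cd36 differed gene by gene. Of 8 measured lipase partners and lipoprotein receptors 5 were higher and 3 lower in KO (median 0.05). Apoe, the apolipoprotein of remnant particles, was at 168.01 FPKM in KO against 89.65 in WT and 102.23 in siDyrk2 against 83.86 in siNeg. Scarb1, the gene of a high-density lipoprotein receptor, was at 4.14 FPKM in KO against 6.43 in WT. In siDyrk2 5 were higher and 3 lower (median 0.10).

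Of 13 measured fatty acid uptake and binding genes 7 were higher and 6 lower in KO (median 0.05), and 9 were higher and 4 lower in siDyrk2 (median 0.20). The fatty acid transport genes Slc27a6 and Slc27a1 were at 7.12 and 6.72 FPKM in KO against 4.51 and 4.31 in WT. Fabp5, a carrier related to Fabp4, was at 16.09 FPKM in KO against 12.69 in WT and 18.72 in siDyrk2 against 12.77 in siNeg, and so was far more abundant than Fabp4 in FPKM.

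Within the angiopoietin-like family, 4 of 7 genes were measured, and all 4, Angptl4 among them, were higher in KO than in WT (median 0.62). In siDyrk2 3 were higher and 1 lower (median 0.45). Angptl2, a secreted relative of Angptl4, was at 21.03 FPKM in KO against 13.33 in WT and 20.46 in siDyrk2 against 13.11 in siNeg. Angptl1 went in opposite directions, at 19.84 in KO against 12.58 in WT but 9.0 in siDyrk2 against 10.48 in siNeg.

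Around Adh1, 6 of 14 measured retinoid and alcohol dehydrogenase genes were higher and 7 lower in KO (median -0.01). The retinal reductase gene Dhrs3 was at 6.92 FPKM in KO against 3.47 in WT, and the retinal oxidising enzyme gene Aldh1a1 at 3.94 against 1.83. Both were also higher in siDyrk2 than in siNeg, Dhrs3 at 4.23 against 2.94 and Aldh1a1 at 3.49 against 2.10. Crabp1, a retinoic acid carrier, was at 51.36 FPKM in KO against 85.05 in WT. In siDyrk2 8 were higher and 6 lower (median 0.12), and Crabp2, another such carrier, was at 10.39 FPKM against 4.2 in siNeg and 6.70 in WT. The related dehydrogenase genes Adh5 and Adh7 had log2 ratios of -0.03 and 0.25 in KO.

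Angptl4, Cebpb and Cebpd are also known to respond to glucocorticoids, and Angptl4 to hypoxia. The part of either response in the levels of these genes was not tested. Of 9 measured glucocorticoid targets 8 were higher in KO (median 0.29), with Mt2 at 92.37 FPKM in KO against 50.61 in WT, while Fkbp5 was at 1.83 against 3.2. Of 10 measured hypoxia targets 7 were higher and 3 lower in KO (median 0.15), with Adm at 36.77 FPKM against 25.33 and Vegfa at 28.16 against 41.59. In siDyrk2 6 of the 9 and 8 of the 10 were higher, with medians of 0.12 and 0.17. Over all genes 43.7% were higher in KO than in WT, and 54.3% in siDyrk2 than in siNeg. Mt2 was at 45.54 FPKM in siDyrk2 against 16.77 in siNeg, over 2-fold, but below the 50.61 in WT. Among 13 measured progenitor and stromal markers 9 were higher in KO (median 0.20), with the tissue factor gene F3 at 50.78 FPKM in KO against 26.12 in WT and 64.23 in siDyrk2 against 28.50 in siNeg. In siDyrk2 9 of the 13 were higher (median 0.15), while Wnt2 was at 4.38 FPKM against 10.59 in siNeg. For siNeg over WT the list medians lay between -0.28 (angiopoietin-like family) and 0.05 (anti-adipogenic regulators).

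**Figure D4:**
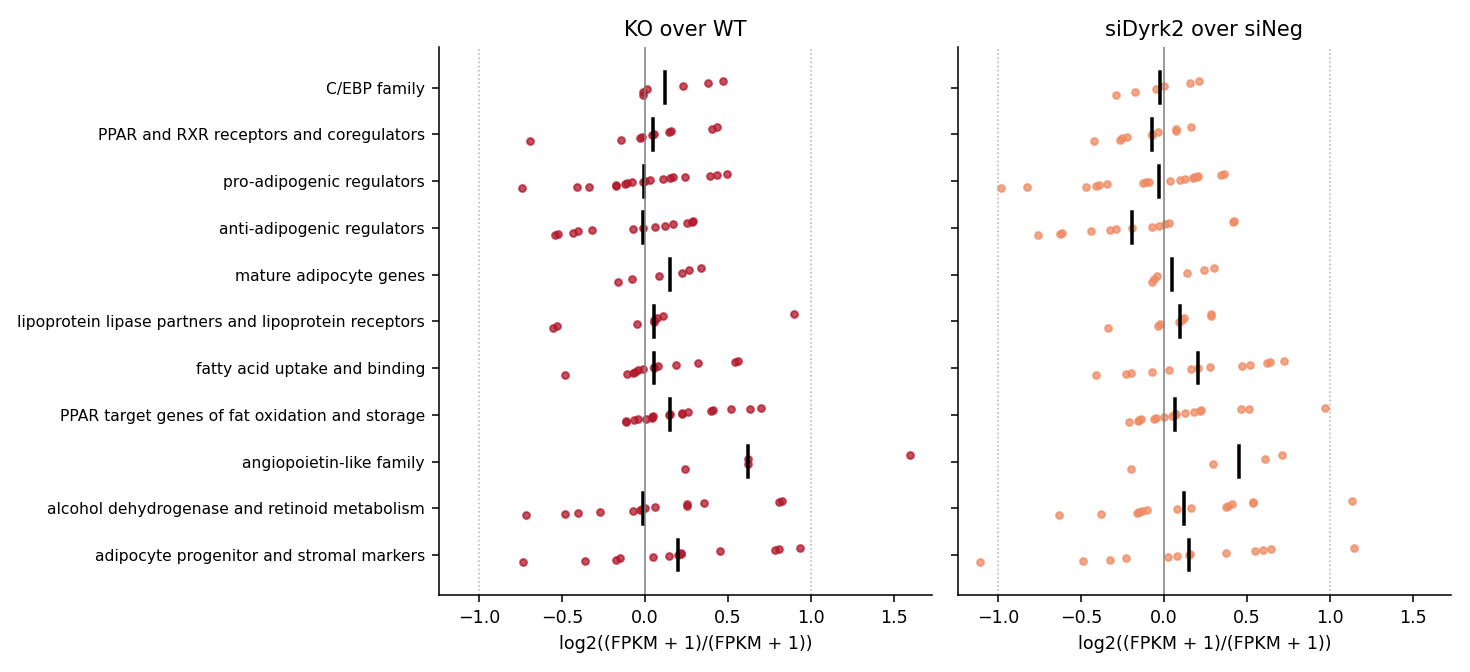
Log2((FPKM + 1)/(FPKM + 1)) of every measured gene in gene lists (rows), for KO over WT and for siDyrk2 over siNeg. Points are genes, black bars list medians and dotted lines 2-fold. The lists of Hedgehog, hypoxia and glucocorticoid targets are not drawn. Most of the medians drawn lie near 0, and the angiopoietin-like family stands furthest to the right in both panels.

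Fibroblast markers were present in all 13 of 13 genes, with Col1a1 at 3275.54 FPKM in KO, 2376.90 in siDyrk2, 3207.77 in siNeg and 3233.43 in WT. Their summed FPKM was 9789 in KO, 7602 in siDyrk2, 8819 in siNeg and 9009 in WT. Single fibroblast markers differed between KO and WT in both directions, 10 higher and 3 lower (median 0.14). Dcn, the gene of the matrix proteoglycan decorin, was at 507.71 FPKM in KO against 256.64 in WT (log2 ratio 0.98), and Lum, the gene of the related lumican, at 340.25 against 185.36 (0.87). Thy1, a surface marker gene, was at 159.1 FPKM in KO against 287.88 in WT (-0.85). In siDyrk2 7 of the 13 were higher and 6 lower than in siNeg (median 0.07). The part of these differences in the results above was not tested. Of 9 adipocyte markers 1 was measured, and their sum was 1.6, 1.31, 1.01 and 1.39 FPKM in the same order. The defining markers Adipoq, Lep, Cidec, Cidea, Retn and Cfd were listed at 0 FPKM in every library and Plin1 at 0.01 or less. Of 22 mature adipocyte genes 6 were measured, 4 of them higher in KO (median 0.15) and 3 in siDyrk2 (median 0.05). The triglyceride lipase gene Pnpla2 was at 8.93 FPKM in KO against 6.86 in WT. Hepatocyte, skeletal muscle and epithelial markers stayed under 1 FPKM in every library, and of 10 endothelial markers Tek alone passed, at 4.52 FPKM in KO, 2.55 in siDyrk2, 4.11 in siNeg and 4.63 in WT. Summed levels stayed under 0.3 FPKM for hepatocyte and skeletal muscle markers and lay between 1.29 and 1.75 FPKM for epithelial ones.

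Macrophage markers were present and were higher in the KO library, as the set was. Of 18 markers 15 were measured, and their summed level over all 18 was 570 FPKM in KO, 418 in siDyrk2, 339 in siNeg and 289 in WT. In KO 14 of the 15 were higher than in WT, 2 by at least 2-fold, with a median log2 ratio of 0.71. In siDyrk2 13 of 15 were higher than in siNeg (median 0.23), and in siNeg 15 of 15 were higher than in WT (median 0.36).

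Macrophages are also known to express Cd36, Lpl, Cebpa, Cebpb and Apoe, among other genes. The part of macrophages in the level of Apoe or of any gene of the set was not tested. For siNeg over WT, where the macrophage median log2 ratio was 0.36, the most abundant of these markers, Lyz2, was at 0.02. In that comparison Cebpd was at 0.16, Pparg at 0.15, Adh1 at 0.07, Lpl at -0.02, Cd36 at -0.05, Cebpb at -0.15, Angptl4 at -0.32 and Cebpa at -0.44.

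**Figure D5:**
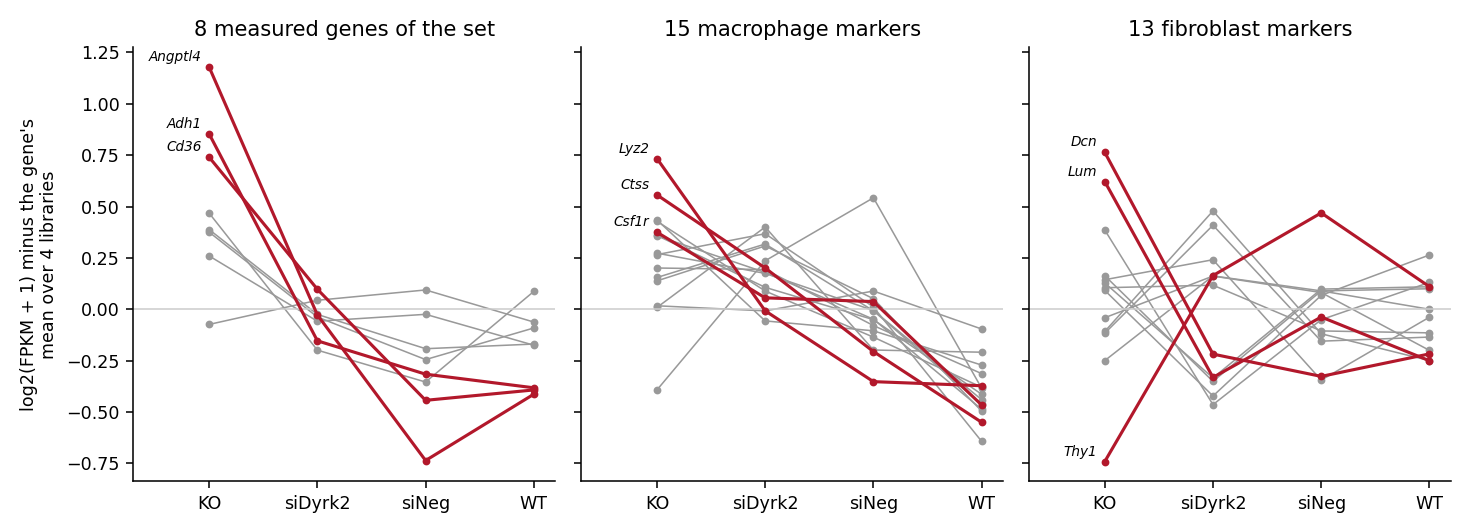
Log2(FPKM + 1) of each gene minus its own mean over the 4 libraries (vertical axis) in KO, siDyrk2, siNeg and WT, for the 8 measured genes, 15 macrophage markers and 13 fibroblast markers; red lines are named genes. The KO library is highest for Angptl4, Adh1, Cd36 and Lyz2, WT lies below the gene's mean for all 15 macrophage markers, and fibroblast markers show no common order.

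The genes whose profiles over the 4 libraries lay closest to these were found by Euclidean distance between centred log2(FPKM + 1) values, among 7479 protein-coding genes with at least 5 FPKM in 1 library. This was done for the 3 genes of the set that spanned at least 1 on the log2 scale. Nearest to Cd36 were Lpar4, a lysophosphatidic acid receptor gene (distance 0.0646), the junction gene Jam2 (0.12) and the macrophage lysozyme gene Lyz2 (0.141). Lpar4 was at 17.66 FPKM in KO, 10.26 in siDyrk2, 6.83 in siNeg and 7.16 in WT.

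Nearest to Adh1 were the interferon-induced gene Ifit3 (0.099), the transcription factor gene Maf (0.182) and Lyz2 (0.193). Lyz2 was at 328.57 FPKM in KO, 196.09 in siDyrk2, 154.19 in siNeg and 152.06 in WT. Angptl4 had no neighbour as close, since Deptor, Pcsk6 and Lpar4 were nearest at distances of 0.468, 0.477 and 0.484. The profiles were not scaled by their range, which was 1.92 for Angptl4, 1.18 for Cd36 and 1.24 for Adh1. The distances therefore depend on the size of the differences as well as on their pattern. Over 4 libraries such likeness is a description of these values.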

How the data were processed

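Total RNA from 4 cultures was made into stranded, polyA-selected libraries, per the labels' protocols. Cutadapt 1.9.1, HISAT2 2.0.1 and the build GRCm38 appear in the submitters' processing notes; which program counted reads, and on which annotation, is not given in the sources used here. Per the file headers, the authors deposited FPKM beside the authors' exonic gene lengths, which for all 9 genes equalled the union of GENCODE M21 exons. Of 55573 identifiers 55394 matched M21. Fragments were estimated from the steps of FPKM in genes of at most 200 bases, where 100% of values were whole within rounding, a step tested on simulated data. Depth was 20 to 23.9 M (M for 1000000) fragments. Counting intervals are exact conditional binomial (ratios) or Poisson (levels) intervals at 95%.

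Ratios are log2((FPKM + 1)/(FPKM + 1)) over the 12817 genes that reached 1 FPKM in any library; "fold" is a ratio of deposited FPKM without the pseudocount. As groups are single libraries, no test was made, and "called" means at least 2-fold. A gene and a partner on the opposite strand cannot be told apart if strand was not used in counting, which is not stated; Cebpb overlaps Tmem189 (11.58 FPKM in KO, 12.12 in WT) and Cebpd overlaps Spidr (2.92 and 3.49). Cebpa and Adh1 overlap predicted genes at under 0.6 FPKM. The members and the 14 gene lists and 7 marker lists were chosen with earlier results of these data known. Named genes were the members, Dyrk2, Gli1 and Ptch1, up to 4 genes per list and comparison by size of ratio, and the 3 nearest profiles; Ddx3y, Mki67, the marker genes given singly, and values of a named gene in a further comparison, were added after their values were seen. Some genes that the rule names are not reported here. Alternatives were other pseudocounts, filters, scalings and the other control library. Python 3.11.15, pandas 2.3.3, scipy 1.17.1 and matplotlib 3.10.9 were used.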

Additional observations from a re-analysis of the deposited data

Results flagged for a closer look

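None of the 9 genes differed in direction between KO over WT and siDyrk2 over siNeg with both counting intervals excluding 1. Among the other genes named by the rule, 7 that did are given here, and the difference was not tested, since each comparison rests on 1 library per group. Values are log2 ratios on FPKM + 1, with KO over WT first.

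Wwtr1 was at 0.25 and -0.76, a difference of 1.01, and the progenitor marker Cd34 at 0.78 and -0.23, a difference of 1.01. Angptl1 was at 0.62 and -0.20 (difference 0.82), and the zinc finger gene Zfp521, an inhibitor of adipogenesis, at 0.29 and -0.44 (difference 0.73). The insulin receptor gene Insr was at 0.11 and -0.41 (difference 0.52), the uncoupling protein gene Ucp2 at 0.40 and -0.14 (difference 0.54), and Rxrb at 0.16 and -0.27 (difference 0.42).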

How the results depend on the processing

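Of the planned recomputations 367 stayed within 1.5 times (counts), the counting interval (genes) or the order-statistic interval (lists), and 32 moved; no called value changed sign. With a pseudocount of 0.1 FPKM the genes at least 2-fold higher and lower were 203 and 404 for KO over WT, 297 and 209 for siDyrk2 over siNeg and 127 and 213 for siNeg over WT, and Fabp4 in KO was at 1.06. With a pseudocount of 5 they were 8 and 14, 19 and 14, and 3 and 8. The KO log2 ratios were then 0.88 for Cd36, which ended its 2-fold call, 0.52 for Lpl, 1.15 for Angptl4 and 1.05 for Adh1, Angptl4 in siDyrk2 was at 0.43, and the Hedgehog targets had medians of -1.28 in KO and -1.21 in siDyrk2. A pseudocount compresses low values by construction. With a filter of 10 FPKM the counts were 17 and 39, 28 and 29, and 3 and 12, and with protein-coding genes alone 27 and 85, 38 and 48, and 2 and 15, since fewer genes were counted. Neither scaling moved any result beyond these bounds.

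With the other intact library as control, added after the data were seen, 9 of 50 values moved. KO over siNeg gave 174 genes higher and 254 lower, Cebpa at 0.82, Cebpb at 0.62, Angptl4 at 1.92 and a glucocorticoid target median of 0.475. The siDyrk2 library over WT gave Cebpa at -0.29, Cebpb at 0.053 and Angptl4 at 0.39. These pairs also differ in the siRNA the labels name, and the cause was not tested. No paired analysis was possible because each group has 1 library and the labels give no replicate numbers. Depth limits Fabp4 and Pparg, whose values rest on 33 to 92 and 120 to 174 fragments.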
